A study of Mus musculus with 18 samples.

Results

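The contacts described here are those of Lnp (ENSMUSG00000009207.9), a gene on the minus strand of mouse chromosome 2 at chr2:74358348-74417492 (NCBI37/mm9). They were taken from chromosome conformation capture carbon copy (5C) libraries of the HoxD region. A fragment pair was included if it joined 1 forward and 1 reverse primer, if its midpoints lay at least 10 kb apart and if at least one end was an EcoRI fragment with its midpoint in the gene. This gave 503 of 4251 pairs in the design used for embryonic stem (ES) cells and 879 of 10068 pairs in the longer design used for limb cells.

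Lnp encodes Lunapark, a membrane protein of the endoplasmic reticulum that stabilizes junctions of its tubules. The gene is a neighbour of the HoxD cluster, lying between the cluster and a digit enhancer called the global control region (GCR). In the digits of the mouse limb Lnp, Evx2 and the 5′ Hoxd genes are expressed together under distant enhancers of this kind. Evx2 and the Hoxd genes encode homeobox transcription factors. In ES cells the Hoxd genes are silenced by polycomb complexes, of which Eed is a subunit of PRC2 and Ring1B the ubiquitin ligase of PRC1. Mtx2, which encodes a mitochondrial import protein, lies on the 3′ side of the cluster.

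All cells are from mice. OS25 ES cells were measured after differentiation to day 3, with retinoic acid for 2 days (D3), and undifferentiated, in 2 libraries each. Eed-/- ES cells (2 libraries), Ring1B-/- ES cells (3) and Ring1B-/- cells that carry wild-type Ring1B (2) or the I53A mutant (1), which lacks ubiquitin ligase activity, were set against wild-type ES cells (2), labelled as the WTF18 line. The methods name inactivated embryonic fibroblasts as feeders for the wild-type, Ring1B-/- and Eed-/- lines, and cite earlier work for the culture of OS25 cells. Before 5C the fibroblasts were left to reattach in medium with LIF and so removed. The methods name 2 Eed-/- clones, and the labels do not say which clone a library came from. Limb cells were the immortalized mesenchymal lines P2 and A2 (2 libraries each), which came from the posterior and the anterior distal forelimb bud of Immortomouse embryos at E10.5 and were kept at 33°C with γ-interferon, so each limb position is 1 cell line. A 5C matrix holds no marker of cell identity with which these labels could be checked. The study calls its replicates biological, and neither its methods nor the labels say how the cultures behind them were separated.

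A 5C read stands for a ligation junction between 2 EcoRI fragments of cross-linked chromatin, detected with 1 forward and 1 reverse primer, and averages over the cells of a library. Interaction frequencies are given as reads of a pair per 1000 reads of its sequencing run. Totals ran from 216419 to 1708047 reads per ES library and from 478818 to 2096681 reads per limb library. At these totals 3 reads correspond to 0.00176 to 0.0139 reads per 1000 in ES cells and to 0.00143 to 0.00627 in limb cells, limits that cover counting error only. Of the Lnp pairs, 29.4% to 70.8% held no read in an ES library and 2.05% to 23.2% held none in a limb library.

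Single pairs were poorly repeated in ES cells. Among Lnp pairs with 100 or more reads in either of 2 replicates, 40.2% to 63.6% had no read at all in the other replicate. In limb cells that share was 0.267% in P2 and 5.92% in A2. The correlation of log2 frequencies of Lnp pairs between replicates was 0.25 to 0.40 in ES cells, 0.72 in P2 and 0.62 in A2. Values are therefore given mainly as means over the pairs of a zone. Where libraries of 2 groups are said to lie apart, the order is a description. The share of all pairs or zones with such an order was not counted.

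Lnp itself was read through 8 fragments in the ES design and 9 in the limb design. Each ends in an EcoRI site, and limb matrices place the primer of 71 added fragments on the last 30 bases of the fragment. The same ends of the fragments with the strongest or the most variable contacts are shown from the NCBI37/mm9 plus strand, because they are what a read identifies. The EcoRI site is in capitals.

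mHoxD_34, forward, chr2:74364547-74364579: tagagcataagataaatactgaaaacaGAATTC
mHoxD_40, forward, chr2:74383654-74383686: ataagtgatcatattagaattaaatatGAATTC
mHoxD_41, reverse, chr2:74388675-74388707: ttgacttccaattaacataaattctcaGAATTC
mHoxD_45, reverse, chr2:74414973-74415005: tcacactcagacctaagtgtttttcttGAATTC
mHoxD_24 on the GCR side, forward, chr2:74325597-74325629: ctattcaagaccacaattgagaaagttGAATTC
mHoxD_67 with Evx2, forward, chr2:74498282-74498314: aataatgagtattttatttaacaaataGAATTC
mHoxD_69 between Evx2 and Hoxd13, forward, chr2:74505500-74505532: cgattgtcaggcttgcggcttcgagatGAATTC

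The G+C content of the last 30 bases was 13.3% at mHoxD_67, 16.7% at mHoxD_40, 26.7% at mHoxD_34 and mHoxD_41, 33.3% at mHoxD_24, 36.7% at mHoxD_45 and 53.3% at mHoxD_69. Whether primers of such different composition capture their junctions equally well was not tested. Values with 1 efficiency factor per primer and library are given where they change a statement.

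Contact levels differed between the fragments of the gene. In ES cells the median over 14 libraries of a fragment's mean frequency was 0.119 reads per 1000 for mHoxD_45, the fragment nearest the promoter, which holds 3 exonic stretches. It was 0.110 for mHoxD_41, 0.110 for mHoxD_40 and 0.0874 for mHoxD_34, all mostly intronic with 1 or 2 exonic stretches. Lower medians were found for mHoxD_35 (0.0663), mHoxD_39 (0.0516), the wholly intronic mHoxD_37 (0.0297) and the wholly exonic mHoxD_33 (0.0286). The 2 lowest are also the 2 shortest, with 500 and 144 bases, while the fragments above 0.08 are 4940 to 10715 bases long. In limb cells the medians were 0.111 for mHoxD_45, 0.111 for mHoxD_40, 0.106 for the intronic mHoxD_43, which was read in limb cells only, and 0.105 for mHoxD_41. mHoxD_33 was again lowest with 0.0228. The start of Lnp transcription at 74417492 lies in a gap between mHoxD_45, which ends at 74415002, and the next fragment, which starts at 74427780, so no measured contact is one of the Lnp promoter fragment.

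Contacts inside the gene had the highest mean frequency of the Lnp zones in each ES group, though not in every library. They were not high for their distance. Against pairs at the same distance in the same library they were at 0.854 times at the median and higher in 2 of 14 libraries. With primer factors they were higher in 9 of 14. D3 cells had 0.159 and 0.223 reads per 1000 over the 7 pairs, and undifferentiated OS25 cells 0.283 and 0.250. Ring1B-/- cells carrying wild-type Ring1B had 0.203 and 0.184, and those carrying I53A 0.224. Eed-/- cells had 0.237 and 0.213. Ring1B-/- cells had 0.254, 0.270 and 0.520, and wild-type cells 0.237 and 0.111. The highest value of the 14 came from 1 Ring1B-/- library (replicate 3) and the lowest from 1 wild-type library (replicate 2). All 3 Ring1B-/- libraries lay above both wild-type and both rescue libraries, and both D3 libraries lay below both undifferentiated ones.

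**Figure D1:**
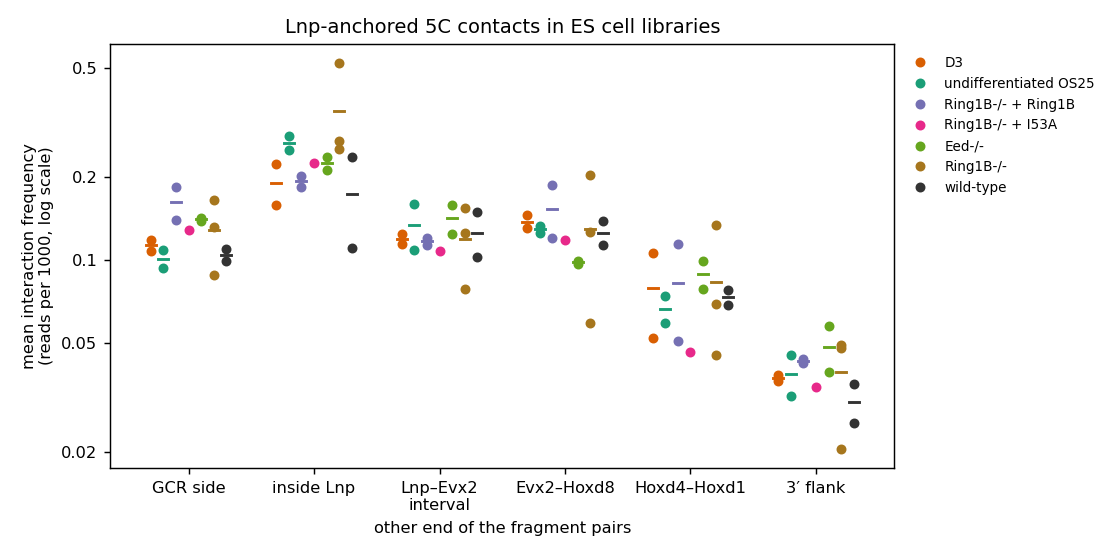
Mean interaction frequency of Lnp with each zone in the 14 ES cell libraries, on a log scale in reads per 1000. Points are libraries and short lines are group means, colours give the group, and the points inside Lnp reach from 0.111 to 0.520.

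The leading pairs inside the gene follow the fragments above. mHoxD_40 with mHoxD_45, 31.7 kb apart, had a mean over groups of 0.400 reads per 1000 and ran from 0 in 1 Eed-/- library to 0.795 in 1 Ring1B-/- library. mHoxD_34 with mHoxD_41, 24.1 kb apart, had a mean of 0.352. This pair had 0.257 and 0.207 in D3 cells, against 0.479 and 0.474 in undifferentiated cells. It had 0.194 and 0.135 in Ring1B-/- cells with wild-type Ring1B, 0.546, 0.776 and 0.735 in Ring1B-/- cells, and 0.450 and 0.0766 in wild-type cells. In Eed-/- cells the pair had 0.416 and 0.524, which overlapped wild-type cells, and in I53A cells 0.174. For D3 against undifferentiated, Ring1B-/- against wild-type and rescue against Ring1B-/- cells the groups did not overlap. The share of other pairs that separate in the same way was not counted. The pair of 20-kb bins with mHoxD_34 and mHoxD_41, which also holds mHoxD_37 with mHoxD_41, missed the threshold in every ES comparison. Its log2 changes were 1.37 in Ring1B-/- against wild-type cells (limma adjusted p = 0.505), -1.35 with wild-type Ring1B (adjusted p = 0.493) and -1.11 in D3 (adjusted p = 0.927). mHoxD_37 with mHoxD_41, 18.8 kb apart, came next with 0.234.

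The GCR side, the 22 fragments from 74241352 to 74357365, gave Lnp 83 pairs in the ES design. D3 cells had 0.108 and 0.119 reads per 1000, against 0.109 and 0.0934 in undifferentiated cells. Ring1B-/- cells with wild-type Ring1B had 0.139 and 0.185, and those with I53A 0.129. Eed-/- cells had 0.139 and 0.142, Ring1B-/- cells 0.131, 0.0882 and 0.165, and wild-type cells 0.0990 and 0.110. Both Eed-/- libraries were above both wild-type ones (limma adjusted p = 0.523), while the 3 Ring1B-/- libraries lay on both sides of them. All Lnp pairs together took 8.13% and 7.68% of the reads at 10 kb or more in Eed-/- libraries. In wild-type libraries that share was 5.73% and 5.07%, so the order is not particular to the GCR side.

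Between Lnp and Evx2 lies an interval with the digit enhancer Prox, covered by 9 fragments from 74427780 to 74482147. D3 cells had 0.124 and 0.114 reads per 1000 here, and undifferentiated cells 0.160 and 0.109. Values with wild-type Ring1B were 0.120 and 0.114, and with I53A 0.108. Eed-/- cells had 0.124 and 0.159, Ring1B-/- cells 0.125, 0.0785 and 0.155, and wild-type cells 0.102 and 0.149. The D3 values lay within those of undifferentiated cells, and the Eed-/- and Ring1B-/- values overlapped those of wild-type cells.

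With the 5′ side of the cluster, Evx2 to Hoxd8, Lnp had 51 pairs. Frequencies were 0.145 and 0.130 in D3 cells, against 0.125 and 0.133 in undifferentiated cells. Rescue libraries had 0.120 and 0.187, and the I53A library 0.118. Frequencies were 0.0995 and 0.0968 in Eed-/- cells, 0.126, 0.0587 and 0.203 in Ring1B-/- cells, and 0.138 and 0.113 in wild-type cells. The Ring1B-/- libraries held both the lowest and the highest of the 14 values. With the 3′ side, Hoxd4 to Hoxd1, Lnp had 45 pairs and less contact. D3 cells had 0.0521 and 0.106, and undifferentiated cells 0.0590 and 0.0739. Rescue libraries had 0.0508 and 0.114, the I53A library 0.0461, Eed-/- cells 0.0993 and 0.0783, Ring1B-/- cells 0.0690, 0.0450 and 0.134, and wild-type cells 0.0687 and 0.0777.

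The strongest contacts that leave the gene in ES cells went to the Evx2 fragment. mHoxD_45 with mHoxD_67, 80.7 kb apart, had a mean over groups of 0.658 reads per 1000 and was read in all 14 libraries. Its values were 0.308 and 0.730 in D3 cells, against 0.549 and 0.754 in undifferentiated cells. With wild-type Ring1B it had 0.143 and 1.39, and with I53A 0.126. It had 0.746 and 0.304 in Eed-/- cells, 0.743, 0.942 and 0.584 in Ring1B-/- cells, and 1.44 and 1.08 in wild-type cells. Wild-type libraries were above all Eed-/- and Ring1B-/- libraries at this pair, and the share of other pairs with such an order was not counted. mHoxD_41 with mHoxD_67, 104 kb apart, had a mean of 0.629 but was at 0 in 1 wild-type and 1 Eed-/- library and at 1.53 in the I53A library. Next came mHoxD_39 with mHoxD_31 on the GCR side, only 15.9 kb apart, with 0.494.

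Taken by gene, the 5 pairs of Lnp with the Evx2 fragment had 0.222 to 0.581 reads per 1000 in ES libraries, with a median 2.96 times the mean frequency of pairs at the same distance. The distance expectation is the mean, within a library, of all pairs in the same distance class that have at most one end in the cluster. Lnp with the fragment of Hoxd11, a gene of limb and digit patterning, was 2.11 times the expectation at the median and above it in 12 of 14 libraries. Lnp with Hoxd13, the most 5′ Hoxd gene, was 1.74 times the expectation and above it in 10 of 14. Lnp with Hoxd12 and Hoxd9 was below it in all 14, at 0.315 and 0.243 times. Lnp with Hoxd1 was at 0.536 times and with Mtx2 at 0.576 times. Evx2, Hoxd13, Hoxd11, Hoxd9 and Hoxd1 are each represented by 1 fragment, so gene and primer cannot be told apart.

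The 3′ flank, 70 fragments from 74604633 to 74907778, had the lowest Lnp frequencies in the ES design, from 0.0205 to 0.0573 reads per 1000 over 280 pairs. D3 cells had 0.0380 and 0.0362, against 0.0452 and 0.0319 in undifferentiated cells. Rescue libraries had 0.0436 and 0.0421, and the I53A library 0.0345. Eed-/- cells had 0.0389 and 0.0573, Ring1B-/- cells 0.0479, 0.0205 and 0.0488, and wild-type cells 0.0353 and 0.0255. Both Eed-/- libraries lay above both wild-type ones here too (limma adjusted p = 0.523). In all 14 libraries the flank was below the distance expectation, by 1.05 on the log2 scale at the median, and by 0.24 with primer factors, again below it in all 14.

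**Figure D2:**
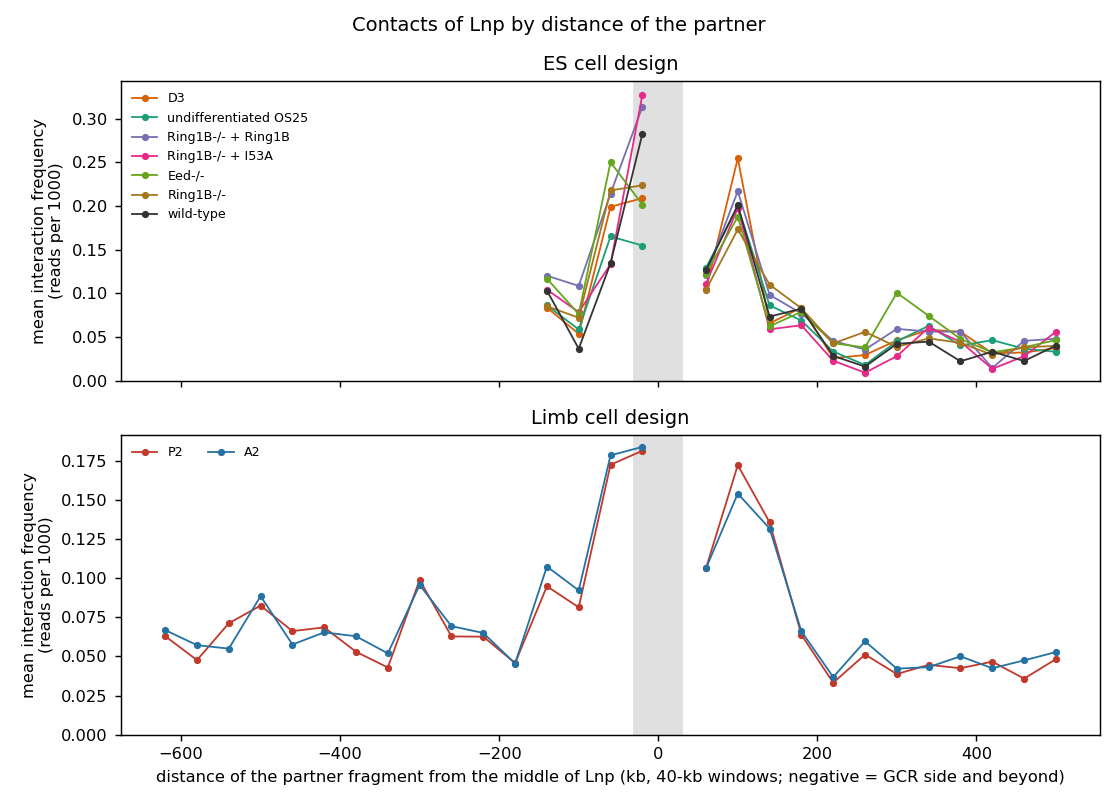
Mean frequency of pairs that leave Lnp, in reads per 1000, by distance of the partner fragment from the middle of the gene in 40-kb windows, for ES cells above and limb cells below. Lines are means over the libraries of a group, without primer factors, and the grey band marks the gene. Over libraries the median at 80 to 120 kb towards the cluster was 0.202 in ES and 0.158 in limb cells, above the 0.111 and 0.106 at 40 to 80 kb.

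The profile of Lnp frequencies, taken without primer factors, was not a plain decay with distance. In ES libraries the median frequency was 0.111 reads per 1000 in the window 40 to 80 kb towards the cluster and 0.202 in the window 80 to 120 kb, which holds the Evx2 fragment. Limb libraries had 0.106 and 0.158 in the same windows. Primer factors were not applied to these windows. With them the difference in log2 ratio to distance between Evx2–Hoxd8 and the nearer interval went from 0.30 to -0.42 in ES libraries. In limb libraries it went from 0.66 to -0.0041. At 200 to 240 kb, around Hoxd1, the medians were 0.0314 in ES and 0.0337 in limb libraries.

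Within a library, the contacts of Lnp were compared between zones on their log2 ratio to the distance expectation. In ES cells the 5′ side of the cluster exceeded the 3′ side by 0.86 ± 0.50 (SD, n = 14), or 1.81-fold, and did so in 13 of 14 libraries. Both Eed-/- libraries had the lowest differences, -0.07 and 0.20, against 0.27 to 1.62 in the other 12. With primer factors they were again lowest, with 0.11 and 0.06, against 0.38 to 1.84. This contrast of Eed-/- with the other libraries was noticed in the values and was not tested. For the 5′ against the 3′ side, an exact two-sided sign-flip permutation test over libraries gave p = 0.000244 (adjusted p = 0.000732 over 3 such comparisons). With primer factors the difference was 0.87 and held in 14 of 14. In limb cells it was 1.10 ± 0.11 (SD, n = 4), in 4 of 4 libraries, where the exact test cannot go below p = 0.125.

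The other 2 comparisons were smaller. The GCR side was below the Lnp–Evx2 interval in 13 of 14 ES libraries, by a mean difference of -0.26 ± 0.30 (SD, n = 14; exact sign-flip permutation p = 0.00842, adjusted p = 0.00928), and was at 0.02 ± 0.13 in limb cells (SD, n = 4; exact p = 0.875). Evx2–Hoxd8 exceeded the interval by 0.30 ± 0.37 (SD, n = 14) in ES cells (exact sign-flip permutation p = 0.00928, adjusted p = 0.00928). With primer factors the sign turned to -0.42, with 2 of 14 libraries above 0 (exact sign-flip permutation p = 0.000854, adjusted p = 0.00128). Opposite directions thus passed the same test, depending on how primers were treated, and no direction is taken from it. These within-library tests were added after the data were seen. They ask only whether libraries share a direction, and all libraries share their primers. Replicates of the same group were flipped as if independent.

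The design asks whether Lnp contacts differ between cell states and genotypes. Zone means were compared as log2(mean + 0.02) with limma, and p-values were adjusted over all 21 zone pairs of the ES design. None of the 6 Lnp zone pairs passed the threshold of 0.05 in any of the 7 ES comparisons. The background of called zone pairs was 4.76% in D3 against undifferentiated cells and in the rescue with wild-type Ring1B, and 9.52% in Eed-/- against wild-type cells. It was 0.0% in the other 4, where limma called no zone pair at all. An unadjusted p under 0.05 was found for 1 Lnp zone pair in Ring1B-/- against wild-type cells and for 1 in the rescue with wild-type Ring1B, both inside the gene, and for 0 in the other 5 comparisons.

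**Figure D3:**
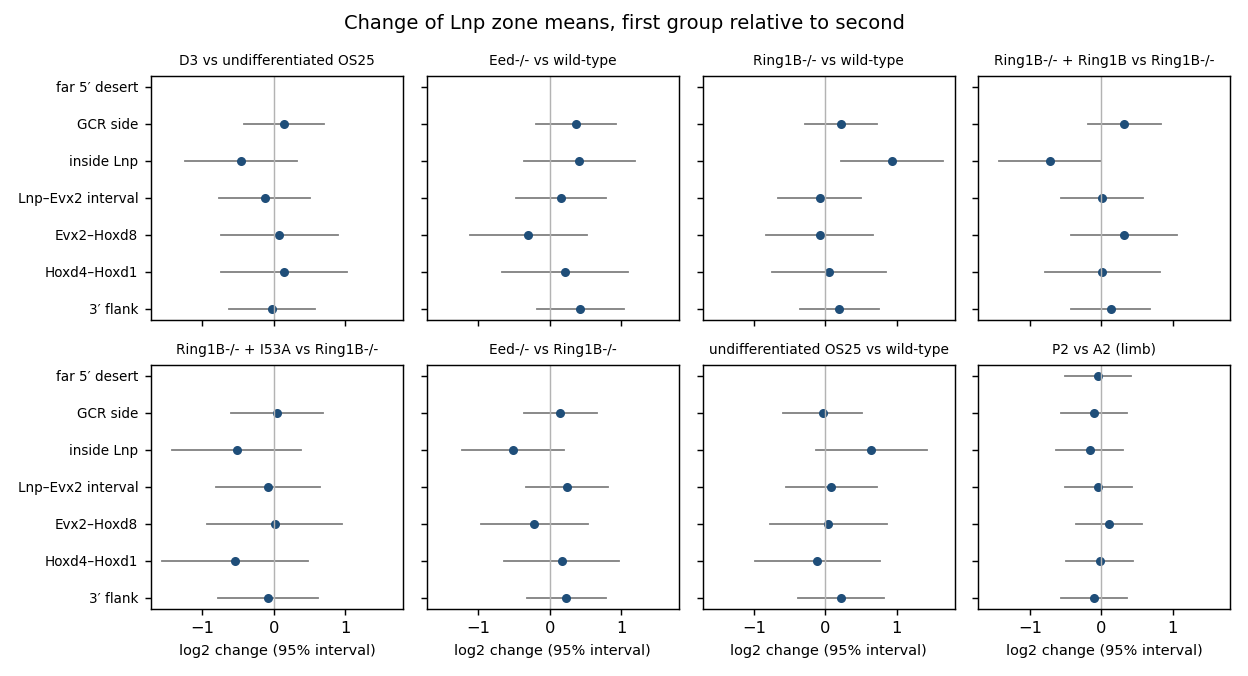
Log2 change of the mean frequency of each Lnp zone in the 8 comparisons, with the first-named group relative to the second. Points are limma estimates and lines 95% intervals, and only the changes inside Lnp in Ring1B-/- against wild-type cells and in the rescue have intervals that leave out 0.

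Contacts inside the gene came closest. In Ring1B-/- cells their mean was 0.348 ± 0.149 reads per 1000 (SD, n = 3), against 0.174 ± 0.089 in wild-type cells (SD, n = 2). The log2 change was 0.93 with a 95% interval from 0.22 to 1.65 (limma adjusted p = 0.151). Leaving out 1 library at a time gave 0.45 (without wild-type replicate 2, adjusted p = 0.919) to 1.42 (without wild-type replicate 1, adjusted p = 0.0405), and with pairs under 10 kb included the change was 0.29 (adjusted p = 0.748). Adding back wild-type Ring1B gave 0.193 ± 0.013 (SD, n = 2). The change relative to Ring1B-/- cells was -0.72 (interval -1.43 to -0.0045, limma adjusted p = 0.277), and -0.11 with pairs under 10 kb included. With I53A the change was -0.52 (interval -1.42 to 0.38), the single library being assumed to vary like the other groups. These 3 comparisons share the Ring1B-/- libraries.

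Elsewhere the intervals included 0. Inside the gene the change was -0.46 (interval -1.24 to 0.32) in D3 against undifferentiated cells, 0.42 (-0.36 to 1.20) in Eed-/- against wild-type cells, -0.52 (-1.23 to 0.20) in Eed-/- against Ring1B-/- cells and 0.64 (-0.14 to 1.42) in undifferentiated OS25 against wild-type cells. Eed-/- against Ring1B-/- passed the threshold with primer factors (-1.03, adjusted p = 0.0139) and had the opposite sign when pairs under 10 kb were included. For Evx2–Hoxd8 the change was 0.08 (-0.74 to 0.90) in D3, -0.30 (-1.12 to 0.52) in Eed-/- and -0.08 (-0.83 to 0.66) in Ring1B-/- cells relative to wild type. Among the remaining zones the changes farthest from 0 were 0.43 (-0.18 to 1.03) with the 3′ flank in Eed-/- cells and -0.54 (-1.56 to 0.47) with Hoxd4–Hoxd1 in I53A cells.

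At finer resolution 557 pairs of 20-kb bins were tested in ES cells, 90 of them with a bin centred in Lnp. Only 1 Lnp bin pair passed the threshold, the same one in 3 comparisons. Limma called 0.18% of all bin pairs in D3 against undifferentiated cells, 0.359% in Ring1B-/- and 1.26% in Eed-/- against wild-type cells, 0.18% in the rescue with wild-type Ring1B, 0.0% with I53A, 1.26% in Eed-/- against Ring1B-/- cells and 0.18% in undifferentiated OS25 against wild-type cells. Unadjusted p-values under 0.05 were held by 2.22% of Lnp bin pairs in D3, against 5.03% of all bin pairs. These shares were 10.0% and 12.03% in Eed-/- cells, 12.2% and 9.52% in Ring1B-/- cells, and 15.6% and 9.87% in the rescue with wild-type Ring1B. The Lnp shares thus lay on both sides of the shares over all bins.

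The called bin pair, chr2:74321352-74341351 with chr2:74381352-74401351, holds a single fragment pair. It joins mHoxD_24 on the GCR side with mHoxD_41 in Lnp, 60.8 kb apart. It had 0.360 and 0.276 reads per 1000 (219 and 220 reads) in D3 cells and no read in either undifferentiated library. Rescue cells had 0.254 and 0.618, and I53A cells 0.110. Eed-/- cells had no read in either library, Ring1B-/- cells had 0.193, 0.431 and 0.323 (329, 332 and 357 reads), and wild-type cells had no read in either library. Thus it was absent from the reads of 6 ES libraries of 3 groups and present in all 8 libraries of the other 4 groups.

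**Figure D4:**
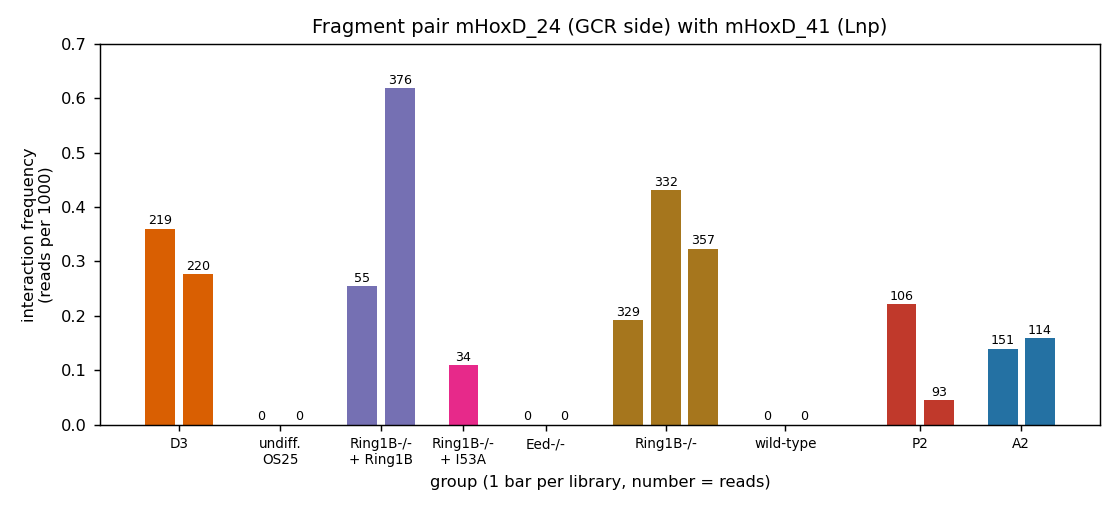
Interaction frequency of mHoxD_24 with mHoxD_41 in reads per 1000, 1 bar per library, with the number of reads above each bar. The 2 undifferentiated, 2 Eed-/- and 2 wild-type libraries are at 0, and the other 12 libraries lie between 0.0444 and 0.618.

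The limma log2 change was 4.07 (95% interval 2.90 to 5.24, adjusted p = 0.00381) in D3 against undifferentiated cells. It was 4.00 (2.94 to 5.07, adjusted p = 0.00179) in Ring1B-/- against wild-type cells. For Eed-/- against Ring1B-/- cells it was -4.00 (-5.07 to -2.94, adjusted p = 0.000974). Since wild-type and Eed-/- libraries all held no read, the last 2 comparisons are the same contrast with the sign turned, not separate evidence. With empty libraries set to the level of 3 reads, the ratio was 92.4 for D3 over undifferentiated cells. The ratio was 70.8 for Ring1B-/- over wild-type cells and 104 for Ring1B-/- over Eed-/- cells. These ratios were not tested, and the level of 3 reads covers counting error only. Unlike the ratios, the limma changes include the constant added before taking logs. The other pairs of both fragments were read in the empty libraries, with means of 0.0435 to 0.0838 for mHoxD_24 and 0.0428 to 0.146 for mHoxD_41. In D3 and Ring1B-/- libraries those means were 0.0584 to 0.0907 and 0.0609 to 0.125. The call in D3 was lost when the 2 groups were fitted alone (adjusted p = 0.111) and without D3 replicate 1 (0.0862) or either undifferentiated library (0.0635 each). The call in Ring1B-/- cells was lost when fitted alone (adjusted p = 0.0928). Loss of whole pairs between replicates, given above for pairs of 100 or more reads, was frequent in ES libraries, and its part in this pattern was not tested.

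In limb cells Lnp contacts were more even. Inside the gene P2 cells had 0.266 and 0.227 reads per 1000 over 12 pairs, and A2 cells 0.288 and 0.269. With the GCR side P2 had 0.148 and 0.0942, and A2 0.148 and 0.112. With Evx2–Hoxd8 P2 had 0.145 and 0.159, and A2 0.140 and 0.138. With Hoxd4–Hoxd1 P2 had 0.0576 and 0.0637, and A2 0.0595 and 0.0647. With the 3′ flank P2 had 0.0444 and 0.0376, and A2 0.0505 and 0.0407. Both P2 libraries were below both A2 libraries inside the gene and above them at Evx2–Hoxd8, by small amounts.

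**Figure D5:**
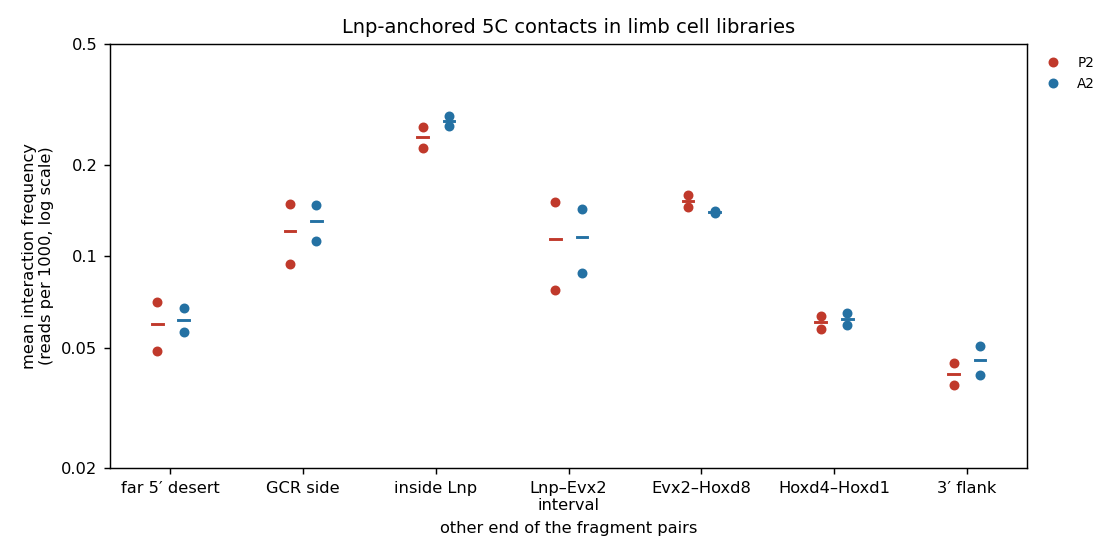
Mean interaction frequency of Lnp with each zone in the 4 limb cell libraries, on a log scale in reads per 1000. Points are libraries and short lines group means, and at the Lnp–Evx2 interval they lie at 0.151 and 0.0773 in P2 and at 0.143 and 0.0880 in A2.

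The limb matrices of replicate 2 of both lines name the 71 added fragments by their primers, and in some zones the replicates differed by more than the lines did. At the Lnp–Evx2 interval the first libraries had 0.151 in P2 and 0.143 in A2, and the second ones 0.0773 in P2 and 0.0880 in A2. Contacts with the far 5′ gene desert, which carries further digit enhancers (71 fragments from 73751054 to 74232805, 317 pairs), were 0.0708 in P2 and 0.0673 in A2 among the first libraries and 0.0487 and 0.0563 among the second.

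None of the 7 Lnp zone pairs of the limb design differed between P2 and A2 cells at the threshold, with changes from -0.16 inside the gene (interval -0.63 to 0.30) to 0.11 at Evx2–Hoxd8 (-0.36 to 0.57). These intervals rest on 1 standard error pooled over zone pairs, so they do not measure the spread of a single zone. The smallest adjusted p of limma was 0.913, the background of called zone pairs was 0.0%, and no Lnp zone pair reached an unadjusted p under 0.05. With the naming of the matrices as a block both changes were the same in size (adjusted p = 0.837 each). Of 1146 pairs of 24-kb bins, 139 with Lnp, limma called 0.0%, and 2 Lnp bin pairs had an unadjusted p under 0.05. Leaving out A2 replicate 1 leaves 1 A2 library. In that fit some pairs with the bin of mHoxD_45 were higher in P2, by 1.64 to 2.63 on the log2 scale. These bin pairs hold 1 to 3 fragment pairs each and were singled out from that fit. The share of all bin pairs that moved as far was not counted.

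Lnp contacts in limb cells were led by other partners. mHoxD_45 with mHoxD_48 in the neighbouring interval, 23.7 kb away, had 0.714 and 0.447 reads per 1000 in P2 and 0.609 and 0.402 in A2 cells. mHoxD_41 with mHoxD_27 on the GCR side, 43.8 kb away, had 0.508 and 0.414 in P2 and 0.481 and 0.548 in A2. mHoxD_45 with mHoxD_69, the stretch between Evx2 and Hoxd13, had 0.631 and 0.455 in P2 and 0.548 and 0.213 in A2. Lnp with the Evx2 fragment was at 1.24 times the distance expectation at the median, while Hoxd13 was at 2.85 and Hoxd11 at 3.14 times, above expectation in all 4 libraries. Other genes of this side were lower, with Hoxd12 at 0.697 and Hoxd9 at 0.682 times, above expectation in 0 and 1 of 4 libraries. Hoxd8 was at 1.17 times and above expectation in 3 of 4. Evx2, Hoxd13, Hoxd11 and Hoxd9 are each 1 fragment, and all these ratios are without primer factors. The Evx2–Hoxd8 zone that holds them had a median log2 ratio of 0.57, above 0 in 4 of 4 libraries. With primer factors that ratio was -0.14, above 0 in 1 of 4. For Hoxd13 the values were 0.262 and 0.436 in P2 and 0.249 and 0.292 in A2. In ES cells the Evx2 fragment had stood above those of Hoxd13 and Hoxd11, a difference in order that the separate designs do not allow to be tested. The leading pairs inside the gene, mHoxD_34 with mHoxD_41 and mHoxD_40 with mHoxD_45, were the same 2 as in ES cells, with means over groups of 0.524 and 0.523, followed by mHoxD_41 with mHoxD_43 (0.485).

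Within the far 5′ desert the frequency of Lnp contacts did not fall steadily with distance. Medians over 4 libraries lay between 0.0458 and 0.0956 in the 12 windows from 160 to 640 kb away, with the highest value at 280 to 320 kb, from 9 pairs. The zone as a whole was at the distance expectation, with log2 ratios of 0.02 and -0.24 in P2 and 0.00 and -0.01 in A2. With primer factors it was above the expectation in 4 of 4 libraries, by 0.27 and 0.02 in P2 and by 0.22 and 0.11 in A2. The 3′ flank, at similar distances, was below expectation in all 4, by -0.53 and -0.52 in P2 and by -0.29 and -0.37 in A2.

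Across libraries, the mean frequency of all Lnp pairs moved most like that of the Lnp–Evx2 interval (Pearson r = 0.45) and the 3′ flank (r = 0.36) over 14 ES libraries, and most like the far 5′ desert (r = 0.99) and the interval (r = 0.97) over 4 limb libraries, with pairs that end on Lnp left out of those zones. All zones of a library share its depth and scaling, and r is given as a description only.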

How the data were processed

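The authors ran Ion Torrent reads through a Galaxy workflow for 5C and scaled each contact to the run total, times 1000. The deposited matrices hold this signal, 1 per library, on mm9 per the labels. No aligner is named in the sources used here. Deposited values were whole multiples of 1 read, from which totals were taken. Replicates were no copies (chi-square per degree of freedom of 19.3 to 184).

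Primer directions were read from the contacts, and pairs under 10 kb were left out. Zone means and means of 20-kb (ES) or 24-kb (limb) bin pairs above 0.02 were taken as log2(mean + 0.02). Empty pairs were kept. Primer factors, an alternative, divide each pair by the relative means of its fragments over pairs at least 120 kb apart. Comparisons used limma 3.58.1 (R 4.3.3) with two-sided tests (14 ES or 4 limb libraries, Benjamini-Hochberg within a comparison). Total degrees of freedom of 12.3 (ES) and 56 (limb) for zones include those borrowed across zone pairs that share fragments. All limb Lnp zone pairs had the same standard error of 0.233. Among 557 simulated bin pairs in D3, limma recovered 6% of 50 log2 changes of 1, 60% of 50 of size 2 and 80% of 50 of size 3, while 2 of 357 unchanged pairs were called.

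Named were all Lnp zones and fragments, up to 5 called bin pairs in each direction and the 3 highest pairs inside and leaving the gene. The gene, its zones and these rules were chosen with earlier results of these data known. Genes are from GENCODE on mm9. Python 3.11.15 and matplotlib 3.10.9 were used. Alternatives were the scaling, distance minimum, pseudocount, low filter, bin grid, primer factors, groups fitted and each library left out. FISH data were not analysed here.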

Additional observations from a re-analysis of the deposited data

Results flagged for a closer look

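Pairs of Lnp under 10 kb, which the comparisons left out, held signal far above the level of 3 reads. Over 13 such pairs the median of library means was 1.03 reads per 1000 in ES cells (0.644 to 1.42) and 0.396 in limb cells (0.261 to 0.583), and these pairs took 15.9% to 38.7% of the Lnp reads of an ES library and 4.58% to 11.4% of those of a limb library. With them included, the log2 changes inside the gene were closer to 0 in Ring1B-/- against wild-type cells (0.29, against 0.93 without them), in the rescue with wild-type Ring1B (-0.11, against -0.72), with I53A (-0.04, against -0.52), in D3 (-0.02, against -0.46) and in undifferentiated OS25 against wild-type cells (0.24, against 0.64). The change was larger in Eed-/- against wild-type cells (0.80, against 0.42) and in P2 against A2 cells (-0.35, against -0.16), and had the opposite sign in Eed-/- against Ring1B-/- cells (0.52, against -0.52). None of the 8 passed the threshold with them included.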

How the results depend on the processing

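Across the alternatives an Lnp zone pair was called in only 2 cases, 1 in Eed-/- against Ring1B-/- cells with primer factors and 1 in Ring1B-/- against wild-type cells without wild-type replicate 1 (range 0 to 1 on leaving out each library). The count of Lnp bin pairs in D3 was 1, and 0 with bins of double width, shifted bins or the 2 groups fitted alone, and 0 to 1 without each library. In Ring1B-/- against wild-type cells it was 1, and 0 with double bins or the groups alone. In Eed-/- against Ring1B-/- cells it was 1, 0 with double or shifted bins and 2 with a pseudocount of 0.005. In Eed-/- against wild-type cells it was 0, and 1 with shifted bins or that pseudocount. In limb cells it was 0, and 0 to 4 without each library.

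Inside the gene the sign turned in Eed-/- against wild-type cells with primer factors (-0.27) and without wild-type replicate 2 (-0.0698), where leaving out each library gave -0.0698 to 0.90, and in Eed-/- against Ring1B-/- cells with no minimum distance (0.52). At Evx2–Hoxd8 it turned in D3 with the distance-matched ratio (-0.30) and the mean of log2 values (-0.0298). It turned in Ring1B-/- cells with the mean of log2 values (0.36), without the first and last fragment (0.00939) and on leaving out libraries (-0.44 to 0.32). In the rescue it turned with the mean of log2 values (-0.00396) and on leaving out libraries (-0.0841 to 0.67). With I53A it turned with the mean of log2 values (-0.16), scaling to the sum of pairs (-0.0238) and leaving out libraries (-0.39 to 0.36). In Eed-/- against Ring1B-/- cells leaving out libraries gave -0.61 to 0.14. In undifferentiated OS25 against wild-type cells primer factors gave -0.0921, scaling -0.0222 and leaving out libraries -0.0879 to 0.17. None of these had been called. Among the other zones the sign turned in 27 of 33 changes under some alternative, and none gained a call. Evx2–Hoxd8 against the interval turned to -0.42 in ES and -0.00411 in limb libraries with primer factors. The causes were not tested. The block for limb matrices, the within-library differences and their alternatives were chosen after seeing the data. No paired analysis was possible because the labels give no replicate number that groups share. The limb block follows how the matrices name fragments, which sets the first library of both lines against the second. In the shallowest library 3 reads are 0.0139 reads per 1000, and in ES cells replicates differed by far more than counting error (chi-square per degree of freedom of 59.3 to 184).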
